A study of Zea mays subsp. mexicana with 6 samples.

Results

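In seedlings of teosinte, 110 of 184280 assembled unigenes stood higher in the cold and lower in the drought than in the control. They were chosen by their own values in FPKM (fragments per kilobase of a unigene's length and per mapped fragments of its library). A member had a mean of at least 1 FPKM over the 6 libraries, a cold minus control difference of at least 1 and a drought minus control difference of at most -0.8. Both differences were taken between group means of log2(FPKM + 1). In addition, both cold libraries lay above and both drought libraries below both control libraries, and unigenes that the paper's text names by identifier were to be left out, which removed 0. These values are therefore a description of the choice, and no test of either comparison is used as a result on the members.

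The plants were Zea mays ssp. mexicana L. of the variety 8493, a wild relative of maize that is grown as forage, and all 6 libraries came from this same variety. The cold group (2 libraries) was held at 4°C for 12 h. The drought group (2 libraries) was treated for 3 h with Hoagland solution that held 20% of the polyethylene glycol PEG2000. The control group (2 libraries) stayed untreated at 25°C. All seedlings were 13 days old and grew under 10 h of light and 14 h of dark. Roots, stems and leaves of at least 3 seedlings were pooled in each sample, so a change in the share of a tissue, fewer cells of a type and less RNA per cell cannot be told apart. Agent and duration differ together between the stresses and cannot be told apart either, and the hour of harvest is not given in the sources used here. The seedlings grew in soil substrate, and the paper describes no control given Hoagland solution without PEG. In drought against control, the nutrient solution and the PEG therefore cannot be told apart. A unigene is the longest transcript of a cluster that the assembler Trinity treated as a gene, so near-identical copies of a gene may appear as several unigenes among which the reads are split.

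Plants answer cold over hours by building up sugars and other solutes, by stronger antioxidant defence and by slower growth. Lack of water in the root medium acts through osmotic signals, closes stomata, limits carbon gain and changes the uptake of ions. Many genes are known to answer both stresses in the same direction through shared signals such as abscisic acid. No sequence of a unigene is printed because the tables used here hold none.

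Each library held between 967046 and 993409 FPKM in all, and 42849 to 55928 of its unigenes reached an FPKM of 1, most in the cold libraries. The files give no read counts, so no counting error can be stated. Across the 38768 unigenes with a mean of at least 1 FPKM, which are not independent replicates, the libraries of a group correlated on the log2(FPKM + 1) scale with a Pearson's r of 0.950 in the cold, 0.951 in the drought and 0.956 in the control. The smallest p that a two-sided exact permutation test can give with 2 libraries against 2 is 0.333. Where the text gives a test, it comes from a limma fit over all 38768 unigenes with Benjamini-Hochberg adjustment and a call at an adjusted p under 0.05. The p-values measure the spread between these pooled samples only.

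Each threshold alone was met by many more unigenes. A cold minus control difference of at least 1 with no overlap was seen in 4828 unigenes (12.5% of the 38768), and a drought minus control difference of at most -0.8 with no overlap in 2146 (5.54%). Both together held for 110, or 0.284%, and for 151 when the libraries were allowed to overlap. Both cold libraries lay above both control libraries in 28.1% of all tested unigenes, and both drought libraries below both control libraries in 24.6%. In the limma fit, 98 of the 110 passed the call as higher in the cold, where 14.8% of all tested unigenes did, and 52 passed as lower in the drought, where 2.83% did. The rule used these same contrasts, so nothing is read from the counts. The other 58 met the drought rule without passing the drought test.

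**Figure D1:**
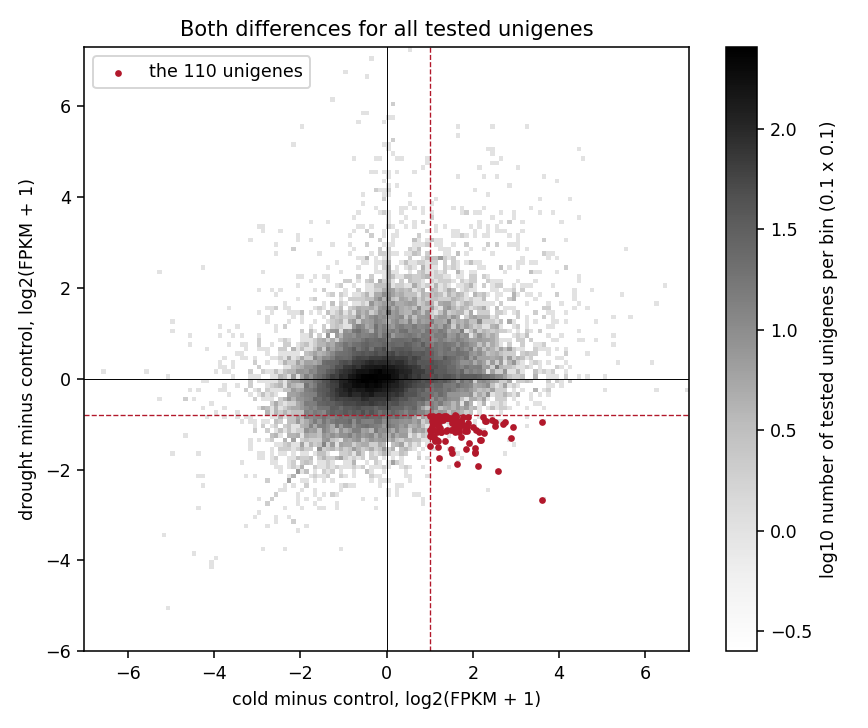
Cold minus control (x axis) and drought minus control (y axis), both as differences of group means of log2(FPKM + 1), for the 38768 tested unigenes in grey bins and the 110 members in red. The dashed lines mark the thresholds of 1 and -0.8, and the members fill the lower right corner, reaching 3.61 for cold and -2.66 for drought.

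The median cold minus control difference of the members was 1.50, with a range of 1.001 to 3.61, against a median of -0.18 over all tested unigenes. Their median drought minus control difference was -1.06, with a range of -2.66 to -0.80, against 0.01 over all tested unigenes. The cold side was the larger one in 92 of the 110. The cold difference reached 2 in 22 members, while the drought difference reached -1 in 63 and -2 in only 2. The same 2 unigenes, c62460_g1 and c60355_g2, passed 2 on both sides. The rule asked for less on the drought side (-0.8 against 1), and the pseudocount limits how far a member with a low control value can fall. Listed at 0 in both drought libraries, c8822_g1 reached only -1.51. The sizes of the cold and drought differences are therefore not read as a stronger or weaker response.

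Summed over the members, FPKM was 7940 and 7457 in the cold libraries, 1173 and 1208 in the drought libraries and 2684 and 2467 in the control libraries. The sums were 0.799% and 0.760% of all FPKM in the cold, 0.121% and 0.125% in the drought and 0.276% and 0.255% in the control. The rule fixed the order of the groups in the sum, and the replicates were close. Without the 2 most abundant members, c54505_g1 and c54533_g2, the sums were 5976 and 5558 in the cold, 791 and 791 in the drought and 1805 and 1749.6 in the control. The median member had 24.1 and 19.9 FPKM in the cold, 1.88 and 2.12 FPKM in the drought and 5.62 and 5.83 FPKM in the control.

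**Figure D2:**
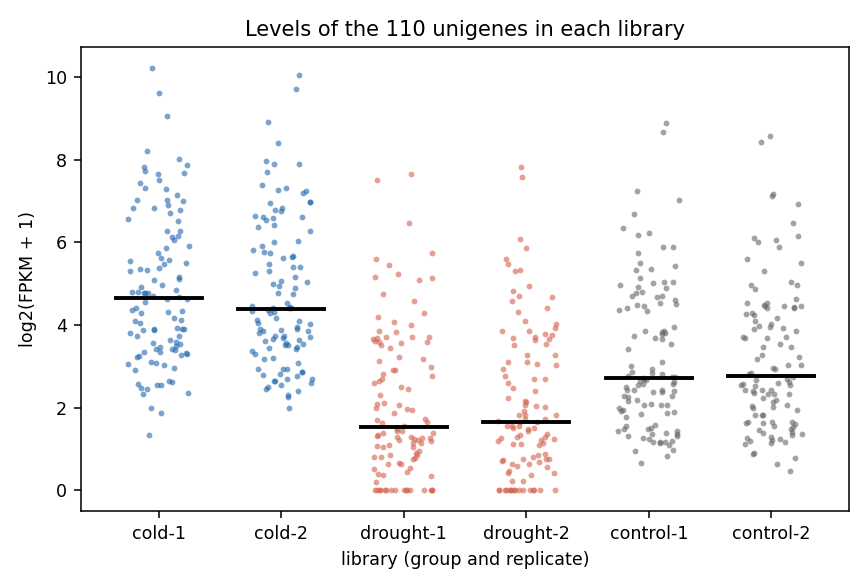
The level of each of the 110 members, as log2(FPKM + 1), in each of the 6 libraries (1 point per unigene), with the median of the library as a black bar. The cold libraries stand highest and the drought libraries lowest, and a row of drought points lies at 0 while no cold or control point does.

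Levels spread widely within the set. A mean of 100 FPKM or more was reached by 6 members, 45 lay between 10 and 100, and 59 lay under 10. In the drought, 12 members were listed at 0 in both libraries and 8 more in 1 library. None was listed at 0 in a cold or control library, as the rule requires. The lower cold value was at least 2 times the higher control value in 75 members, and the lower control value at least 2 times the higher drought value in 51, with 36 meeting both. Replicates differed by more than 1 on the log2 scale in at least 1 group in 21 members, and in the control in 5.

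The supplementary annotation, of which only a portion was used here, gave any name for 21 members and named a function for 17. Most of these names come from sheets that the authors made of unigenes raised in the cold, so the named members are not a random sample of the 110. Their median cold difference was 2.25, against 1.31 for the 83 members that are not described singly. These 83 leave out 10 members without a named function that were taken for their large differences, which widens this gap. Many of the other unigenes set beside members by protein name below also have their names only from these sheets. Such unigenes, c57231_g4 and c63100_g1 among them, were found because they rose in the cold, so nothing is read from that rise. Members carried 9 LOC numbers of maize genes and 6 of these were found in maize RefSeq (assembly Zm-B73-REFERENCE-NAM-5.0).

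The member with the largest drought difference, c62460_g1 (LOC100192597), resembles an Arabidopsis protein with a DnaJ domain, the part by which co-chaperones engage Hsp70. It had 181 and 249.9 FPKM in the cold, 1.62 and 1.95 FPKM in the drought and 20.4 and 13.6 FPKM in the control. Its differences were 3.60 for cold minus control and -2.66 for drought minus control. On the FPKM scale the cold mean was 12.7 times the control mean, and the control mean 9.50 times the drought mean. A further DnaJ unigene, c53105_g1 (hit: chaperone protein dnaJ 8 of Arabidopsis), did not share this pattern. It had 110.4 and 112 FPKM in the cold, 95.1 and 79.7 FPKM in the drought and 22.5 and 17.4 FPKM in the control, so that it stood above the control under both stresses. The third annotated DnaJ unigene, c58928_g1, differed from the control by 0.03 in the cold and 0.26 in the drought.

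Several members carry names of regulators. The 2 unigenes with hits to LOB domain-containing protein 37, which in Arabidopsis represses anthocyanin synthesis and nitrate-responsive genes, were both members. Both names come only from the sheets of unigenes raised in the cold, and the paper counts more unigenes of the LOB family. The 2 members therefore do not show how the family responded. The unigene c64515_g1 had 129 and 91.6 FPKM in the cold, 5.97 and 5.48 FPKM in the drought and 31.5 and 18.7 FPKM in the control. The other, c64582_g2, had 65.2 and 52.7 FPKM in the cold, 3.95 and 4.52 FPKM in the drought and 12.7 and 11.9 FPKM in the control. Their cold differences were alike (2.12 and 2.17), while the drought differences were -1.91 and -1.34. Both match the same maize protein, so they may be copies or alleles of a single gene and are not counted as separate evidence.

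A B-box zinc finger protein named Salt tolerance protein (c63681_g1, LOC100284784), whose Arabidopsis namesake takes part in light signalling, had the largest cold difference of all members, 3.61. Its level was 126 and 97.6 FPKM in the cold, 3.22 and 4.31 FPKM in the drought and 13.3 and 4.89 FPKM in the control. The control libraries were far apart here, and control-2 lay only just above drought-2, so the drought difference of -0.95 was small beside the spread of the control. The other annotated B-box unigene, c57231_g4, stood higher in the cold by 2.31 and differed by -0.09 in the drought.

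The FAF3-like unigene c15547_g1, of a family that affects shoot meristem size in Arabidopsis, had 13.1 and 9.82 FPKM in the cold, 0.26 and 0.39 FPKM in the drought and 1.83 and 1.27 FPKM in the control. The SHOOT GRAVITROPISM 6-like unigene c58901_g10, named after an Arabidopsis gene needed for upward bending of shoots, had 26.2 and 18.5 FPKM in the cold, 0.76 and 1.22 FPKM in the drought and 3.77 and 4.29 FPKM in the control. The control mean was 4.77 times the drought mean for c15547_g1 and 4.07 times for c58901_g10, and the cold mean was 7.38 and 5.54 times the control mean. All drought and control values of both were under 5 FPKM, where the pseudocount shrinks the log2 differences.

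Signalling proteins were also among the members. The unigene c63996_g1 was named a probable esterase KAI2, in Arabidopsis the receptor for karrikins, which are germination cues from smoke. It had 210.4 and 158 FPKM in the cold, 6.47 and 12.4 FPKM in the drought and 27.02 and 20.8 FPKM in the control. A related unigene of the alpha/beta hydrolase family, c63100_g1, reached similar levels in the cold (228 and 173 FPKM) but stood nearer to the control in the drought, with 20.5 and 21.5 FPKM against 30.1 and 27.4 FPKM in the control. It missed the drought threshold at -0.44.

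The unigene c44038_g1 was named LOG3, an enzyme that releases active cytokinin from its ribotide in the last step of synthesis. Its level was 40.2 and 11.9 FPKM in the cold, 0.59 and 0.33 FPKM in the drought and 1.61 and 2.54 FPKM in the control. The cold replicates were the ones far apart, and the drought and control values were low. The other unigene named LOG3, c64195_g2, had 65.4 and 35.5 FPKM in the cold, 5.57 and 4.99 FPKM in the drought and 8.63 and 8.92 FPKM in the control, which gave differences of 2.33 and -0.64. Both had the same order of groups, cold over control over drought, and c64195_g2 fell outside by the size of the drought difference alone. The name of c64195_g2 comes only from the sheets of unigenes raised in the cold, so its place above the control in the cold was given by that choice.

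The unigene c59543_g1 (LOC100304242) has the Arabidopsis cysteine-rich receptor-like kinase 8 as a match, of a family of plasma membrane kinases, and had 12.3 and 11.2 FPKM in the cold, 0.94 and 0.82 FPKM in the drought and 3.56 and 2.54 FPKM in the control. The unnamed c59543_g3 of the same component had 9.18 and 8.75 FPKM in the cold, 0.44 and 0.47 FPKM in the drought and 2.68 and 1.95 FPKM in the control, and was a member as well. Of 8 unigenes with a match to such a kinase, 1 was a member, and 3 of the others had a positive cold and a negative drought difference. Most of these matches come only from the sheets of unigenes raised in the cold, which favours a positive cold difference. In 5 of the 8 the annotation also names a retrotransposon or a polyprotein, and for c59543_g1 the kinase name rests on the Arabidopsis match alone.

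Enzymes of primary metabolism formed a further group. Polyamine oxidase, which oxidises spermidine and spermine and releases hydrogen peroxide, was the most abundant member with a named function. The unigene c54533_g2 had 782 and 835 FPKM in the cold, 179.9 and 189.9 FPKM in the drought and 475 and 340.5 FPKM in the control. Its cold difference was close to the threshold (1.005), and its drought difference was -1.12. The groups did not overlap, as the rule requires, and the control replicates differed by more than those of either stress.

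The GDP-L-galactose phosphorylase (VTC2) unigene c55782_g2, which catalyses the first committed step of ascorbate synthesis in plants, had 536 and 478 FPKM in the cold, 87.0 and 66.2 FPKM in the drought and 129.6 and 144 FPKM in the control. The differences were 1.88 in the cold and -0.84 in the drought. Another 10 unigenes had ascorbate in their name, most of them as nucleobase-ascorbate transporters, a name that does not show that they carry ascorbate. Of these, 1 had a positive cold and a negative drought difference, the nucleobase-ascorbate transporter c63339_g5 (0.22 and -0.44). L-ascorbate peroxidase c60088_g1, which spends ascorbate to remove hydrogen peroxide, differed by -0.66 in the cold and 0.05 in the drought, and ascorbate peroxidase2 c57858_g1 by -1.37 and -0.08. Other transporters of this name moved differently, with -0.10 in the cold and 2.07 in the drought for c58993_g3 and 1.95 in the cold and 0.65 in the drought for c63746_g3.

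Sucrose-phosphate synthase makes the phosphorylated precursor of sucrose in the cytosol. Its member c42505_g1 had 10.8 and 13.4 FPKM in the cold, 2.32 and 0.54 FPKM in the drought and 5.66 and 4.04 FPKM in the control. The more abundant unigene of that name, c64511_g3, had 198 and 188 FPKM in the cold, 33.5 and 25.9 FPKM in the drought and 173 and 136 FPKM in the control, with differences of 0.33 and -2.34. Its drought value was thus far below the control, while its cold values were slightly above it. The remaining ones differed by 0.77 and -1.32 (c64511_g4) and by 3.50 and 0.21 (c27649_g1). The rule fixed both signs of the member c42505_g1. Both c64511_g3 and c64511_g4, which share a component, had a positive cold and a negative drought difference. The name of c27649_g1 comes only from the sheets of unigenes raised in the cold, so its cold difference was positive by that choice.

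A class I glutamine amidotransferase, a domain that takes ammonia from glutamine in many syntheses, was represented by c57553_g1 and c57553_g2, which share a component and the maize match LOC100501517. The first had 157 and 107 FPKM in the cold, 8.09 and 10.3 FPKM in the drought and 21.4 and 17.0 FPKM in the control. The other had 202 and 153 FPKM in the cold, 11.3 and 14.2 FPKM in the drought and 29.4 and 22.1 FPKM in the control. Their differences were nearly the same (2.70 and 2.74 in the cold, -0.99 and -0.96 in the drought), and shared reads could make them so. An unrelated component with this name, c56299_g2, differed by 2.14 in the cold and 1.28 in the drought, at no more than 6.96 FPKM in any library.

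Carriers of ions and sugars were members as well. Potassium channel5 (c40535_g2), a relative of the Arabidopsis channel AKT1 that brings potassium into roots, had 26.97 and 41.6 FPKM in the cold, 1.32 and 3.40 FPKM in the drought and 7.58 and 5.16 FPKM in the control. The unigene c59648_g3 was named potassium transporter 27-like, with an Arabidopsis match to potassium transporter 5, known for high-affinity potassium uptake in roots. It had 23.8 and 19.6 FPKM in the cold, 0.88 and 1.18 FPKM in the drought and 2.87 and 3.01 FPKM in the control. Replicates of this transporter were close in all groups, and its differences were 2.52 and -0.96.

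In all, 13 unigenes at a mean of at least 1 FPKM were named for potassium transport, of which 2 were members and 5 others had a positive cold and a negative drought difference. Of these 5, c36467_g1, c57629_g1 and c64268_g1 were named only in the sheets of unigenes raised in the cold, so their cold difference was positive by that choice. Potassium transporter 27-like c36467_g1 had 9.21 and 8.14 FPKM in the cold, 0.42 and 0.63 FPKM in the drought and 0.81 and 0.96 FPKM in the control, with a drought difference of only -0.31. The potassium channel c64268_g1 had 55.2 and 77.3 FPKM in the cold, 13.0 and 11.5 FPKM in the drought and 11.2 and 16.4 FPKM in the control. Here the drought and control libraries overlapped. Unigenes named potassium transporter 2 were the counterexample: c57960_g2 had 65.2 and 47.0 FPKM in the cold, 32.2 and 22.1 FPKM in the drought and 14.1 and 19.1 FPKM in the control, above the control under both stresses.

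The member c57099_g3 was named polyol transporter 5-like, in Arabidopsis a carrier of sugar alcohols and sugars in the plasma membrane. It had 118 and 98.9 FPKM in the cold, 12.0 and 11.9 FPKM in the drought and 23.2 and 21.1 FPKM in the control. The replicates were close, and the drought difference of -0.83 lay near the threshold. A more abundant, unnamed member of its component, c57099_g1, had 203 and 206 FPKM in the cold, 33.2 and 29.8 FPKM in the drought and 58.0 and 63.8 FPKM in the control.

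**Figure D3:**
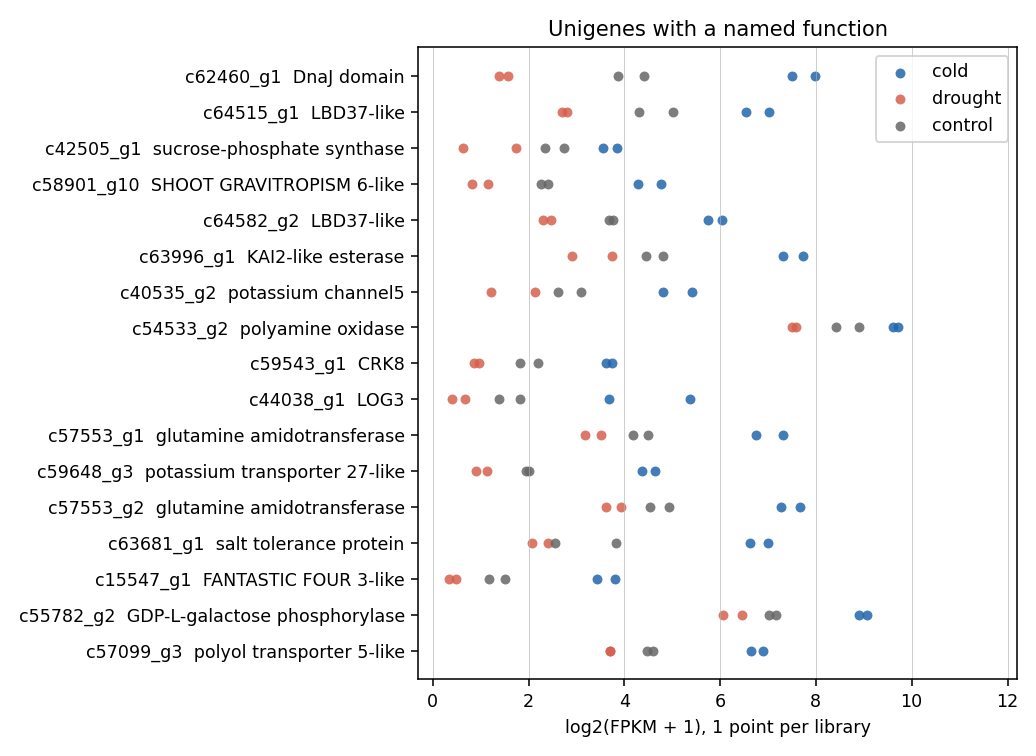
Level, as log2(FPKM + 1), of the 17 members with a named function in each library (blue for cold, red for drought, grey for control, 1 point per library), ordered by the drought minus control difference with the most negative on top. Cold points lie to the right and drought points to the left of both control points in every row, and in the row of c63681_g1 the nearest drought and control points almost touch.

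The pooled tissues were followed by root and leaf markers. Of the 6 unigenes named for the high affinity nitrate transporter, nicotianamine synthase or yellow stripe proteins, which roots use for nitrate and metal uptake, 2 were above 0 in all libraries and 0 were at 0 in all. Their summed FPKM was 76.0 and 111 in the cold, 28.4 and 49.0 in the drought and 33.7 and 63.3 in the control. The cold libraries lay above the control only through nicotianamine synthase2 c30509_g1, with 25.8 and 27.9 FPKM in the cold, 0.69 and 0.40 FPKM in the drought and 1.91 and 0 FPKM in the control. Without it the sums were 50.2 and 83.2 in the cold, 27.8 and 48.6 in the drought and 31.8 and 63.3 in the control, so that cold and control overlapped, as drought and control did.

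The sum over 19 leaf unigenes (chlorophyll a-b binding, Rubisco small subunit and photosystem proteins), of which 9 were above 0 in all libraries, was 7779 and 9148 in the cold, 5695 and 5486 in the drought and 7384 and 7646 in the control. Without Rubisco small chain c59441_g6 it was 3714 and 4656 in the cold, 3479.7 and 3198 in the drought and 3858 and 4359.6 in the control, so that cold and control overlapped. They also overlapped with 5 light-harvesting unigenes added that are written chlorophyll a/b, at 14421 and 17409.8 in the cold, 9782 and 9547 in the drought and 14612 and 14175 in the control. The drought libraries lay below the control in all of these leaf sums, as the members did. The sums without or with these unigenes were added after the data were seen, and the part of tissue shares in the members' values was not tested. No marker unigene was a member.

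Among members without a named function, 10 were taken by the size of their drought minus cold difference. The largest was c60355_g2, which matches the uncharacterized maize LOC100501929. It had 44.6 and 37.1 FPKM in the cold, 1.29 and 0.29 FPKM in the drought and 6.62 and 5.43 FPKM in the control, with differences of 2.57 and -2.03. The unigene c15677_g1 had 9.02 and 13.9 FPKM in the cold, 0 and 0.17 FPKM in the drought and 4.67 and 1.77 FPKM in the control. Its drought difference of -1.87 rested on low values and on control replicates that were far apart.

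A tight pattern was seen in c58532_g1, with 25.2 and 17.0 FPKM in the cold, 0.74 and 0.65 FPKM in the drought and 4.32 and 4.08 FPKM in the control. It was also seen in c48689_g1, with 24.4 and 21.1 FPKM in the cold, 1.31 and 1.40 FPKM in the drought and 3.23 and 3.55 FPKM in the control. In 3 others the control was uneven or the drought was. The unigene c53030_g1 had 33.5 and 18.9 FPKM in the cold, 0.80 and 1.32 FPKM in the drought and 3.15 and 8.69 FPKM in the control. For c61652_g1 the values were 38.3 and 29.5 FPKM in the cold, 3.31 and 1.56 FPKM in the drought and 6.26 and 11.9 FPKM in the control. For c33050_g1 they were 16.9 and 22.1 FPKM in the cold, 0 and 1.95 FPKM in the drought and 3.47 and 4.41 FPKM in the control.

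The last 3 of these 10 were listed at 0 in both drought libraries, and no fold is given for them. The unigene c12564_g1 had 10.2 and 8.15 FPKM in the cold and 1.26 and 2.16 FPKM in the control. The unigene c28558_g1 had 16.1 and 4.85 FPKM in the cold and 0.93 and 1.63 FPKM in the control, and c61676_g4 had 19.2 and 5.87 FPKM in the cold and 0.78 and 1.36 FPKM in the control. In c28558_g1 and c61676_g4 cold-1 stood far above cold-2, so only the direction of the cold difference is shared by the replicates.

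The most abundant member of all, c54505_g1, carried no name and was picked out after its values were seen. It had 1182 and 1064 FPKM in the cold, 202 and 227 FPKM in the drought and 404 and 377 FPKM in the control, with differences of 1.52 and -0.86. Next to it in abundance among the unnamed ones, c56489_g1 had 295 and 338 FPKM in the cold, 52.9 and 57.5 FPKM in the drought and 151 and 138 FPKM in the control. In both unigenes the replicates lay close together, and the groups did not overlap, as the rule requires.

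Further abundant members, also chosen after their values were seen, were c55391_g1 and c60476_g1. The first had 231 and 236 FPKM in the cold, 43.0 and 47.6 FPKM in the drought and 102 and 120.5 FPKM in the control. The other had 257 and 235 FPKM in the cold, 34.9 and 39.1 FPKM in the drought and 79.9 and 69.6 FPKM in the control. At these levels the pseudocount hardly bears on the differences, which were 1.07 and -1.27 for c55391_g1 and 1.71 and -0.99 for c60476_g1.

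Members of the same component had like values. In c45674, c45674_g1 had 76.6 and 64.1 FPKM in the cold, 11.7 and 12.7 FPKM in the drought and 22.2 and 22.2 FPKM in the control, and c45674_g2 had 141 and 124 FPKM in the cold, 22.9 and 22.8 FPKM in the drought and 44.4 and 47.4 FPKM in the control. Beside the SHOOT GRAVITROPISM 6-like member, c58901_g8 had 13.9 and 10.5 FPKM in the cold, 0.30 and 0.50 FPKM in the drought and 1.80 and 1.51 FPKM in the control. Such pairs may divide the reads of a single gene.

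Another 3 members matched maize genes by LOC number with no function in the annotation. The unigene c57774_g1 (LOC542156, for which RefSeq lists the synonym TPS7) had 14.2 and 49.9 FPKM in the cold, 2.13 and 2.53 FPKM in the drought and 4.2 and 8.35 FPKM in the control. Its cold replicates were far apart. The unigene c61560_g2 (LOC103635868) had 43.2 and 43.4 FPKM in the cold, 6.52 and 5.0 FPKM in the drought and 12.3 and 15.2 FPKM in the control, and c51587_g2 had 9.99 and 7.43 FPKM in the cold, 0.32 and 0.16 FPKM in the drought and 1.81 and 1.66 FPKM in the control. In both of these the replicates of each group were close.

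The 83 members that are not described singly by rule, those chosen after their values were seen included, had means between 1.19 and 576 FPKM with a median of 8.61 FPKM. Their cold differences ran from 1.001 to 2.31 and their drought differences from -1.73 to -0.80.

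At the cold threshold, the members nearest to it were c64663_g1 (1.001) and c54533_g2 (1.005), and the nearest unigenes outside it were c64267_g3 (0.997) and c63885_g2 (0.98). At the drought threshold, the nearest members were c51000_g2 (-0.80) and c62013_g2 (-0.81), and outside it were c47094_g2 (-0.797) and c62586_g3 (-0.78). The members with the lowest mean were c59086_g2 at 1.19 FPKM and c32750_g1 at 1.48 FPKM. No unigene could meet the rest of the rule under a mean of 1 FPKM, because the cold and drought thresholds already force a higher mean. At the cold and drought thresholds the boundary therefore runs through a continuous range of values.

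The members came from 105 assembly components, of which 5 held 2 members each: c45674, c57099, c57553, c58901 and c59543. For 40 members no other unigene of the component was listed, and the other 70 had 201 further unigenes with them. Of these, 120 in 57 components reached a mean of 1 FPKM and were tested, and 81 lay under it. The rule did not use their values, although a partner can share reads with a member. In the cold, 29 of 120 (24.2%) were called higher, against 14.8% of all tested unigenes, and 19 (15.8%) lower, against 22.4%. In the drought, 8 (6.67%) were called lower, against 2.83%, and 7 (5.83%) higher, against 5.69%. Their median difference was 0.00 for cold and -0.14 for drought, and most partners did not repeat the pattern of the members. By sign alone, 34 were higher in the cold and lower in the drought. How many of all tested unigenes had these signs was not counted. Calls in both comparisons were not counted over all tested unigenes either, so nothing is read from such joint counts of partners.

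In the direction of the members, 3 partners passed both tests. Polyamine oxidase c54533_g1 had 770.3 and 807 FPKM in the cold, 164 and 186 FPKM in the drought and 507 and 338 FPKM in the control. It rose by 0.93 in the cold (SE 0.20, limma adjusted p = 0.0174) and fell by 1.24 in the drought (SE 0.20, limma adjusted p = 0.0203). The drought call was lost when any library but control-2 was left out (limma adjusted p = 0.0689 to 0.149), and the cold call without control-2, cold-1 or cold-2 (limma adjusted p = 0.0551 to 0.097).

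The partner c55391_g3, unnamed like the member c55391_g1, had 541 and 644 FPKM in the cold, 162 and 165 FPKM in the drought and 370.4 and 396 FPKM in the control. It rose by 0.62 in the cold (SE 0.12, limma adjusted p = 0.0124) and fell by 1.22 in the drought (SE 0.12, limma adjusted p = 0.00504). Leaving out control-1, control-2 or cold-2 ended the cold call (limma adjusted p = 0.0507 to 0.0758), and leaving out control-2 or either drought library ended the drought call (limma adjusted p = 0.051 to 0.0671). The third was c55782_g1, in the component of the VTC2 unigene, with 897 and 866 FPKM in the cold, 237 and 188 FPKM in the drought and 365 and 339 FPKM in the control. Its cold call was firm (1.32, SE 0.14, limma adjusted p = 0.0022), while the drought call (-0.73, SE 0.14, limma adjusted p = 0.032) was lost without any single library (limma adjusted p = 0.0734 to 0.189).

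The opposite pattern was called in 2 partners, both in a component with a member. The unigene c57099_g2, beside the polyol transporter, had 20.8 and 16.4 FPKM in the cold, 112 and 111 FPKM in the drought and 44.9 and 50.8 FPKM in the control. It fell by 1.32 in the cold (SE 0.14, limma adjusted p = 0.00234) and rose by 1.21 in the drought (SE 0.14, limma adjusted p = 0.00813). Similarly, c62013_g1 had 88.3 and 87.5 FPKM in the cold, 304 and 282 FPKM in the drought and 171 and 151 FPKM in the control, where the member c62013_g2 had 58.7 and 49.4 FPKM in the cold, 11.9 and 13.6 FPKM in the drought and 25.1 and 21.1 FPKM in the control. The limma adjusted p of c62013_g1 was 0.00333 in the cold (-0.86, SE 0.11) and 0.00932 in the drought (0.86, SE 0.11). The drought calls of c57099_g2 and c62013_g1 were lost without either control library or either drought library, at adjusted p from 0.0515 to 0.0784 in limma.

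Over the 23 tested partners of members with a named function, 10 were called in neither comparison, 9 in a single one and 4 in both. In the potassium channel5 component, c40535_g1 rose by 2.70 in the cold (SE 0.28, limma adjusted p = 0.00209), and its drought difference was -0.36 (limma adjusted p = 0.525). The partner c40535_g3 rose by 2.02 in the cold (SE 0.48, limma adjusted p = 0.0227), a call that was lost without either cold or either control library (limma adjusted p = 0.0555 to 0.131). In the component of the potassium transporter 27-like member the drought moved instead. The partner c59648_g1 had 35.5 and 42.3 FPKM in the cold, 9.59 and 12.5 FPKM in the drought and 31.0 and 31.6 FPKM in the control, and fell by 1.43 in the drought (SE 0.16, limma adjusted p = 0.00707). Similar in its values, c59648_g2 of the same component fell by 1.40 (SE 0.18, limma adjusted p = 0.01), and both calls were lost without control-1, control-2 or drought-1 (limma adjusted p = 0.0587 to 0.0858).

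The LOG3 partner c44038_g2 rose by 2.57 in the cold (SE 0.30, limma adjusted p = 0.00289), with a drought difference of 0.07. The partner c63681_g5 of the B-box member was far more abundant than the member, with 550.4 and 483 FPKM in the cold, 144.8 and 129 FPKM in the drought and 201 and 153 FPKM in the control. It rose by 1.55 in the cold (SE 0.16, limma adjusted p = 0.00221), while its drought difference of -0.36 did not pass (limma adjusted p = 0.273). Beside the KAI2 member, c63996_g2 was annotated as an uncharacterized protein, not as KAI2. The unigene stood above the control under both stresses. Its level was 20.4 and 28.0 FPKM in the cold, 31.3 and 32.2 FPKM in the drought and 1.32 and 0.86 FPKM in the control. It rose by 3.59 in the cold (SE 0.20, limma adjusted p = 0.000552) and by 3.98 in the drought (SE 0.20, limma adjusted p = 0.000722). A component name therefore did not fix the response of its unigenes.

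**Figure D4:**
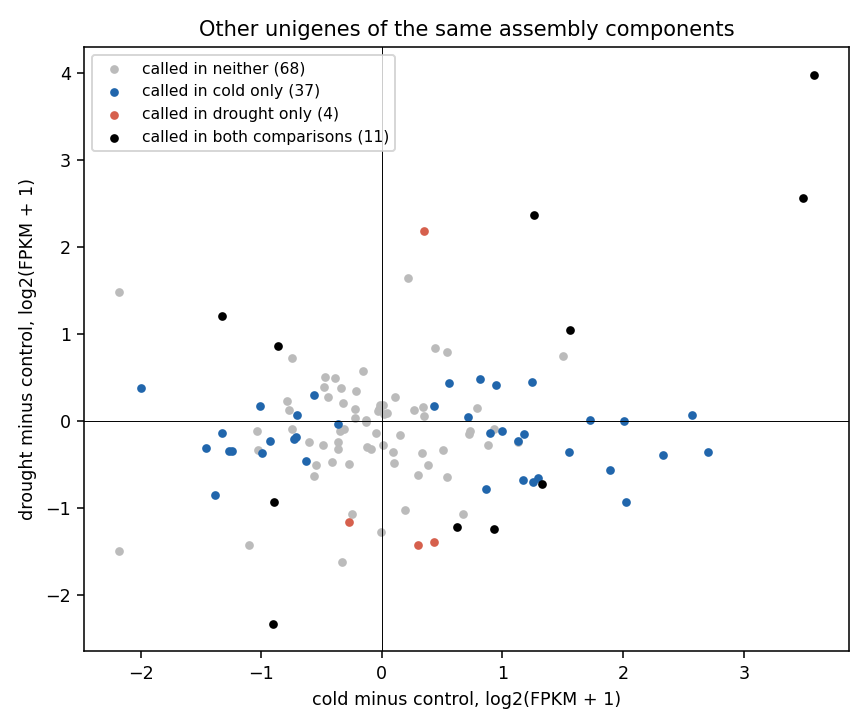
Cold minus control (x axis) and drought minus control (y axis), as differences of log2(FPKM + 1), of the 120 tested unigenes that share an assembly component with a member, coloured by the limma calls. Of them 68 were called in neither comparison, 37 in the cold only, 4 in the drought only and 11 in both, and the points lie on all sides of the origin.

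Annotated unigenes of other functions were counted for comparison, in 19 lists built from sheets that were not sorted by response. No member was in a list, and no unigene of a list was called both higher in the cold and lower in the drought. The share of all tested unigenes with both calls was not counted, so nothing is read from the lack of such calls. The absence of members follows in part from the source of their names. The names of c57099_g3 (polyol transporter), c59648_g3 (potassium transporter), c59543_g1 (kinase match) and c44038_g1 (LOG3) come only from the sheets of unigenes raised in the cold. They could thus not enter the transporter, kinase or cytokinin lists. Among 43 transporter unigenes, 11 were called higher and 2 lower in the cold, and 2 higher and 3 lower in the drought, with medians of 0.21 and -0.12. Among 13 photosynthesis unigenes, 2 rose and 1 fell under cold, and 0 rose and 2 fell under drought, with medians of -0.12 and -0.37. Of 7 cytokinin unigenes, 1 was lower in the cold and 0 passed in the drought, with medians of -0.40 and -0.55. Over the 17 lists with 3 or more tested unigenes, the medians ran from -1.72 to 2.32 in the cold and from -0.55 to 0.26 in the drought, against -0.18 and 0.01 for all tested unigenes.

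In the auxin list (14 unigenes) 5 rose and 1 fell under cold, and 2 fell under drought. In the jasmonate list (19) 8 rose and 2 fell under cold, and 2 rose under drought. All 3 gibberellin unigenes rose under cold and passed no test under drought. Under cold 16 of 36 wall growth unigenes rose and 4 fell, and 1 rose under drought. Of 39 aquaporin unigenes 6 rose and 9 fell under cold, and 7 rose under drought. Of these 5 lists, only the auxin list held unigenes that fell under drought. As a background to the counts of all lists, 14.8% of all tested unigenes rose and 22.4% fell under cold. Under drought 5.69% of all tested unigenes rose and 2.83% fell.

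Of the lists of regulators, MYB (17 unigenes) had 4 that rose and 2 that fell under cold, and 3 that rose under drought. Ethylene response (12) had 3 that rose and 4 that fell under cold, with 2 that rose and 1 that fell under drought. Kinases (124) had 20 that rose and 27 that fell under cold, with 12 that rose and 3 that fell under drought. WRKY and bHLH had 1 tested unigene each, which fell (WRKY) or rose (bHLH) under cold, and neither passed under drought. Clock and light input (4) had 1 that rose and 1 that fell under cold and none called under drought. The named regulators among the members, such as LBD37-like and B-box unigenes, have no list of their own.

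Among the remaining lists, nitrate and nicotianamine (3) had 1 that rose under cold, and cytochrome P450 (6) had 1 that rose and 1 that fell. Heat shock (5) had 4 that fell under cold and 2 that rose under drought. Ribosomal proteins (50) had 6 that rose and 7 that fell under cold, with 1 that rose under drought. Histones (21) had 1 that rose and 6 that fell under cold, and none was called under drought.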

How the data were processed

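The authors discarded low-quality reads and built a Trinity assembly from the merged libraries. Reads were aligned back to it library by library (Bowtie 1.1.1) and RSEM gave the abundance estimates. The authors deposited FPKM values of 184280 unigenes in 6 libraries at 2 decimals, with no scaling between libraries beyond the mapped fragments. The FPKM table holds no read counts, so no count test was run.

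From these, log2(FPKM + 1) was computed, which understates changes of unigenes near 0. The members and lists were chosen with earlier results of these data known. All unigenes with a mean of at least 1 FPKM (38768) were fitted with limma 3.58.1 under R 4.3.3 in a single model of 3 groups with a mean-variance trend (3 residual and 2.86 prior degrees of freedom), tested on simulated data first. Members were in this fit, and their calls are given only as counts. Tables and figures used Python 3.11.15, numpy 2.4.6, pandas 2.3.3 and matplotlib 3.10.9. Members described singly are the 17 with a function in the supplementary annotation and, of the others, the 10 with the largest drought minus cold difference, plus the unigenes nearest to each threshold and component partners. Relatives with the same protein name were looked up after the members' names were known and have no test. Supplementary sheets, held in part (6057 unigenes), served for names only. The 2 sequencing runs of a sample are not given apart. Alternatives were a pseudocount of 0.1, other filters, scalings, thresholds and fits, and leaving out each library.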

Additional observations from a re-analysis of the deposited data

How the results depend on the processing

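All 110 members stayed positive in the cold and negative in the drought under median-of-ratios scaling and quantile normalization, and none of the 594 alternative values of the 27 members described singly changed sign (558 within 1 SD of the replicates, 36 beyond it). The number meeting the rule was 318 with a pseudocount of 0.1, 356 and 318 with separate control libraries for the stresses (of which 84 and 93 were among the 110), 63 with thresholds of 1 and -1, 258 with 0.8 and -0.6 and 6 with 2 and -1.5. Without each library in turn it was 129 to 166, with 81 to 102 of the 110 kept. The median differences were 1.66 and -1.39 with a pseudocount of 0.1, 1.71 in the cold under median-of-ratios scaling, and 1.45 to 1.58 and -1.10 to -1.01 without each library. That scaling gave a median cold difference of 0.00 over all unigenes, against -0.18, and 56.3% of cold calls were then higher, against 39.7%.

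Calls over all unigenes numbered 5721 higher and 8694 lower in the cold, with 2205 higher and 1098 lower in the drought. With no filter, 4093 were lower in the cold, 455 higher and 87 lower in the drought. Lower in the drought were 644 with no mean-variance trend and 581, with 1429 higher, in a separate fit of 4 libraries. Without each library, in fits that assume a lone library to vary like the other groups, calls numbered 3254 to 5166 higher and 3768 to 7664 lower in the cold, with 416 to 1444 higher and 96 to 587 lower in the drought. Likewise, 11 to 25 partners were higher in the cold (29 with all libraries) and 1 to 4 lower in the drought (8), and 56 to 74 listed unigenes higher in the cold (87) and 1 to 6 lower in the drought (11). Leaving out libraries for partners and lists was chosen after seeing the data.

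Replicate numbers did not pair the samples (r of same-numbered deviations 0.039 between cold and drought, -0.032 between cold and control, -0.011 between drought and control). With the replicate block, 5316 unigenes stood higher and 7726 lower in the cold, 1734 higher and 791 lower in the drought, 28 partners and 84 listed unigenes higher in the cold, and 6 partners and 8 listed unigenes lower in the drought.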
